A study of Sus scrofa with 25 samples.

Results

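Muscle libraries that held the most immediate-early gene transcripts were set against those that held the fewest. Of the 25 libraries of the series, 24 were ranked by a score, the mean of log2(CPM + 1) over FOS, JUNB, EGR1 and ATF3, where CPM is counts per 1000000 gene counts. The 8 libraries with the highest score are called high-score and the 8 with the lowest are called low-score, whatever the diet of the pig. The sets were thus selected on measured levels of those 4 genes, whose values only describe the choice and support no result. The other 8 libraries entered neither set and served as held-out samples. The library of animal 27 was left out by the rule.

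Each library came from the muscle of 1 pig and was made by QuantSeq, which sequences the 3' ends of polyadenylated transcripts. All pigs were crossbreds with Polish Large White dams and Landrace sires. They entered the feeding groups on day 85 of life and ate feed with vitamin D3 added at 0 IU/kg (control, 8 pigs), 5000 IU/kg (D5000, 8 pigs) or 10000 IU/kg (D10000, 9 pigs) for 90 days. The labels do not say which muscle was taken, and they give no sampling time, litter or preparation batch for a pig. The high-score set held 1 control, 4 D5000 and 3 D10000 libraries, and the low-score set held 6 control, 0 D5000 and 2 D10000 libraries. The score and the diet were therefore partly confounded in this comparison, and slopes on the score within each diet are given beside the pooled values of the called genes and the main gene lists.

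Immediate-early genes are transcribed within minutes of a stimulus, without new protein synthesis, and many of their products are short-lived transcription factors. In skeletal muscle they respond to contraction, stretch, injury and handling of the tissue. A second group of rapidly induced genes codes for phosphatases, RNA-binding proteins and inhibitors that shut the same signals off, and mitogen-activated protein kinases drive much of the program. Gene roles given below come mainly from work in human and mouse cells.

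**Figure D1:**
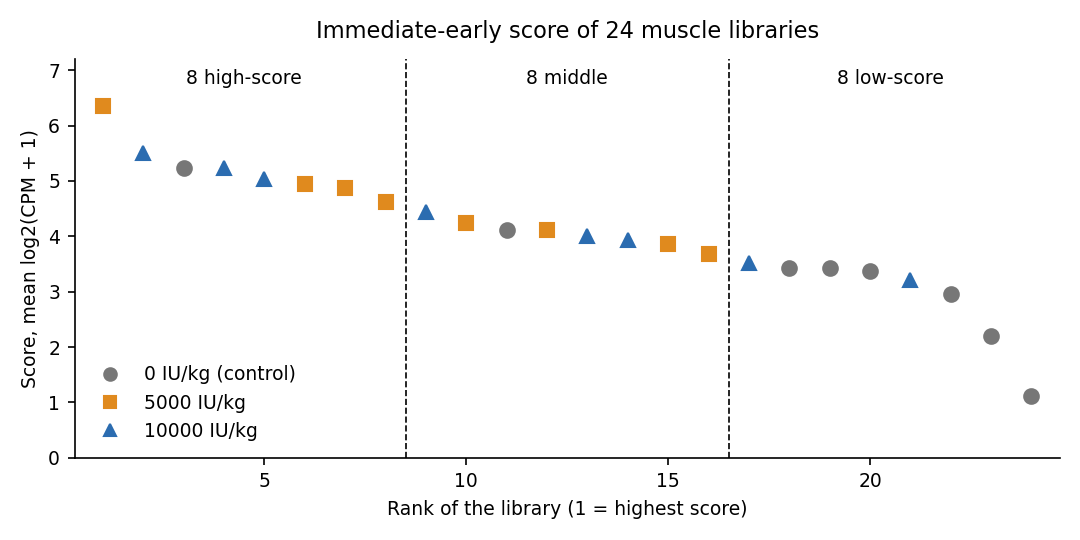
Immediate-early score (mean log2(CPM + 1) of 4 genes, vertical axis) of each of 24 libraries, ordered by rank, with the diet shown by symbol. The dashed lines separate the 8 high-score, 8 middle and 8 low-score libraries; 4 of the 8 high-score libraries came from pigs fed 5000 IU/kg and 6 of the 8 low-score libraries from control pigs.

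The score ran from 4.61 to 6.35 in high-score libraries (median 5.14) and from 1.11 to 3.52 in low-score libraries (median 3.29). At the upper border the last library inside scored 4.61 and the first outside 4.43, and at the lower border the last inside scored 3.52 and the first outside 3.68. FOS spanned 103 to 544 CPM in high-score and 3.50 to 42.6 CPM in low-score libraries. EGR1 spanned 13.5 to 83.4 CPM in high-score and 1.36 to 17.5 CPM in low-score libraries, and ATF3 101 to 785 CPM in high-score and 1.07 to 172 CPM in low-score libraries. FOS did not overlap between the sets, while EGR1 and ATF3 did. JUNB had 4 reads in all, in 1 of the 24 libraries, so in practice the score rested on the other genes. By diet, the score had a median of 3.39 in control, 4.42 in D5000 and 4.22 in D10000 libraries.

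High-score libraries were on average shallower, with fewer reads assigned. The share assigned to genes was 47.6 ± 14.0% in high-score and 59.9 ± 8.16% in low-score libraries (SD, n = 8 each; two-sided exact permutation p = 0.048, adjusted p = 0.242 over 18 library measures). The depth was 3310507 to 10406577 gene counts in high-score and 6403176 to 15177976 in low-score libraries (exact permutation p = 0.05, adjusted p = 0.242). Reads outside annotated genes made up 29.5 ± 5.72% in high-score and 23.0 ± 5.31% in low-score libraries (exact permutation p = 0.034, adjusted p = 0.242). None of the 18 measures passed the adjusted threshold of 0.05, and 2 had an unadjusted p under 0.05. The D10000 library of animal 2 and the D5000 library of animal 18, both high-score, had 28.4% and 24.9% of reads assigned and stood apart, so the main counts are also given without them. Both sets carried muscle transcripts: skeletal actin ACTA1 had a median of 96651 CPM in high-score and 115226 CPM in low-score libraries, and muscle creatine kinase CKM 9774 CPM in high-score and 14750 CPM in low-score libraries.

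**Figure D2:**
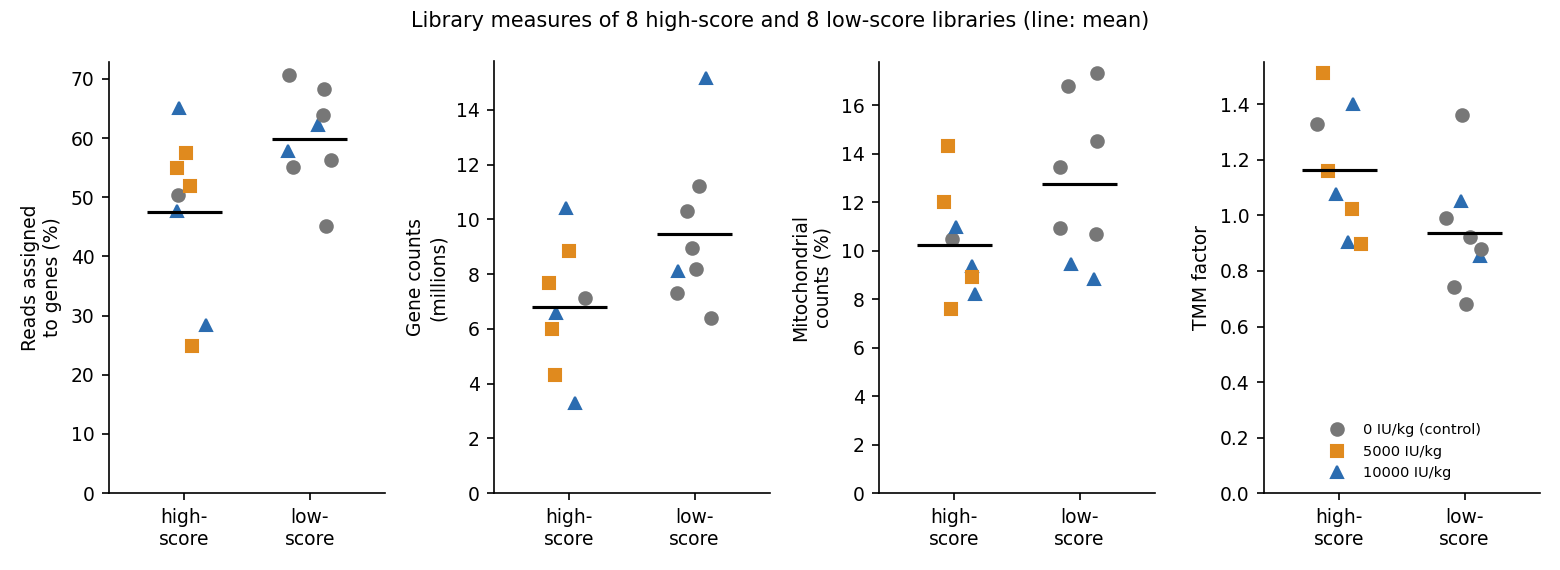
Share of reads assigned to genes (%), gene counts (in units of 1000000), share of gene counts from mitochondrially encoded genes (%) and scaling factor of the trimmed mean of M-values (TMM), for 8 high-score libraries (left) and 8 low-score libraries (right); each symbol is a library and the line is the mean. Reads assigned averaged 47.6% in high-score and 59.9% in low-score libraries, and the ranges overlap in every panel.

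Across the transcriptome, few genes passed the test. The immediate-early feedback gene DUSP1, the immediate-early gene IER5 and the unnamed gene ENSSSCG00000028322 were higher in high-score libraries, and 0 genes were lower. These are 0.0294% of the 10197 genes tested for the higher direction and 0.0% for the lower direction (edgeR quasi-likelihood test, adjusted p under 0.05). At an unadjusted p under 0.05, 729 genes were on the higher side and 388 on the lower side. DESeq2 called 25 genes higher and 1 lower, and limma voom called 0 in either direction, with a smallest adjusted p of 0.0664. Without the 2 libraries with a low assigned share the same 3 genes were called. Since the libraries were sorted by their own transcripts and not assigned to the sets, a call says that a gene went with the score.

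DUSP1 (ENSSSCG00000016991) codes for a nuclear phosphatase that switches off mitogen-activated protein kinases and is itself induced by them. Its level in scaled CPM, that is CPM after TMM scaling, was 71.3 at the lowest, 202 at the median and 396 at the highest in high-score libraries, against 38.8, 54.1 and 81.8 in low-score libraries. All 8 high-score libraries lay above the low-score median and 6 of them above the highest low-score library, so the sets overlapped narrowly. The log2 fold change was 1.86 ± 0.32 (SE, adjusted p = 0.0253).

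IER5 (ENSSSCG00000015541) is an immediate-early gene whose product promotes the activity of heat-shock factor 1. It stood at 63.1, 253 and 671 scaled CPM (lowest, median, highest) in high-score libraries, against 30.2, 65.8 and 101 in low-score libraries. Of the 8 high-score libraries, 7 lay above the low-score median and 6 above the highest low-score library. The log2 fold change was 2.15 ± 0.40 (SE, adjusted p = 0.0283).

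ENSSSCG00000028322 has no symbol in the name tables used here. It stood at 54.8, 162 and 576 scaled CPM in high-score libraries, against 14.6, 31.7 and 89.4 in low-score libraries. All 8 high-score libraries lay above the low-score median and 6 above the highest low-score library, and the log2 fold change was 2.55 ± 0.47 (SE, adjusted p = 0.0283).

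**Figure D3:**
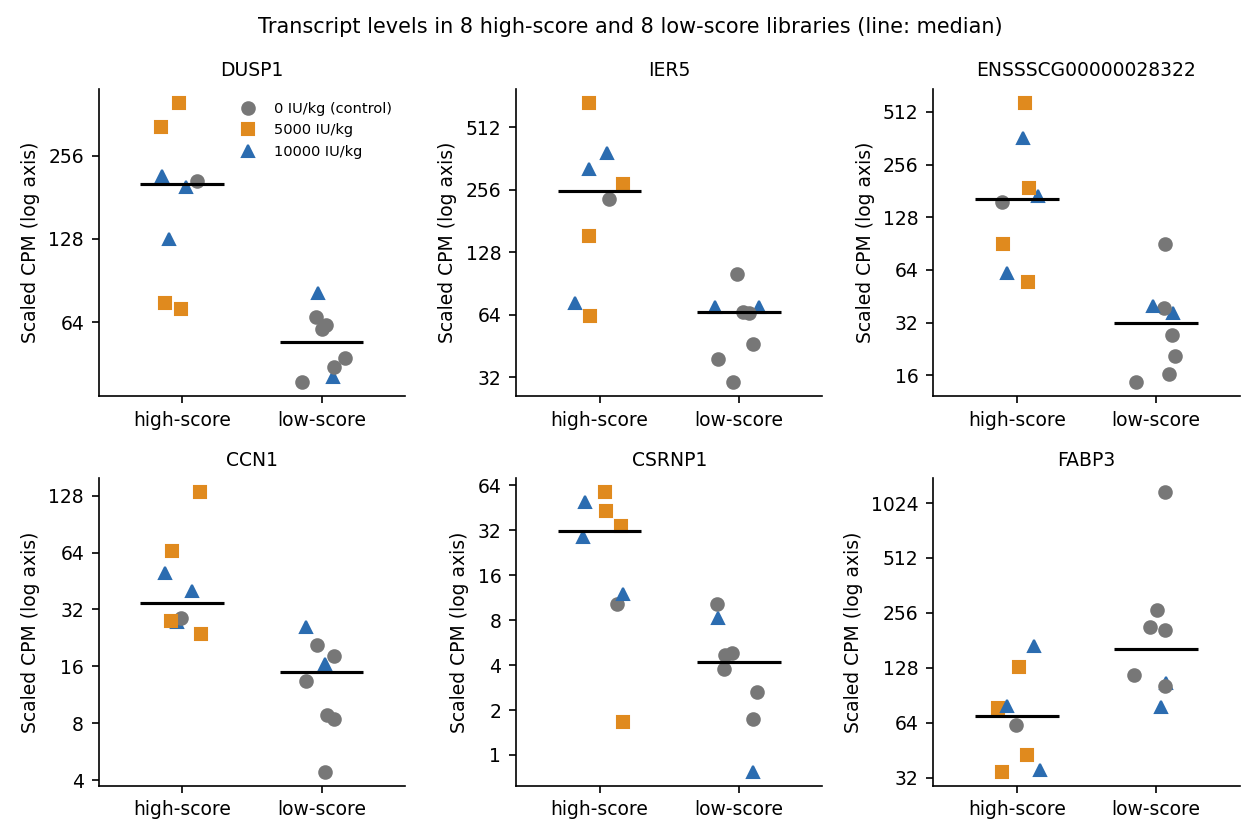
Level in scaled CPM (log axis) of 6 genes in 8 high-score libraries (left) and 8 low-score libraries (right), with the diet shown by symbol and the median as a line. DUSP1, IER5 and ENSSSCG00000028322 passed the test; CCN1, CSRNP1 and FABP3 did not, and for FABP3 1 control library of the low-score set lies at 1173 scaled CPM.

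Whether the sets overlapped depended on the scaling. In scaled CPM 0 genes (0.0%) had all 8 high-score above all 8 low-score libraries and 4 genes (0.0392%) had all of them below. In CPM without TMM 7 genes (0.0686%) lay wholly above, among them DUSP1, ENSSSCG00000028322 and CCN1, and 0 (0.0%) wholly below. The DUSP1 gap there was narrow, from 86.8 CPM in the lowest high-score to 86.0 CPM in the highest low-score library. Scaled CPM was chosen for display after both had been seen. The TMM factor had a median of 1.12 in high-score and 0.90 in low-score libraries, and without TMM the median log2 fold change of all genes moved to 0.31. With no TMM 5 genes were called higher, with 1700 on the higher and 54 on the lower side at an unadjusted p under 0.05, so differences near 0 below depend on the scaling.

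The 3 calls did not all persist when the design was changed. With diet as a further term no gene was called (smallest adjusted p = 0.988; 144 genes higher and 141 lower at an unadjusted p under 0.05). Because the low-score set held 0 D5000 libraries, that fit compares 1 control and 3 D10000 high-score libraries with 6 control and 2 D10000 low-score libraries. The fold changes were 1.72 ± 0.44 for DUSP1, 1.94 ± 0.54 for IER5 and 2.30 ± 0.63 for ENSSSCG00000028322. With assigned share in the model the 3 genes were called at 2.02 ± 0.33, 2.52 ± 0.39 and 3.11 ± 0.38. With FOS removed from the score 6 high-score and 8 low-score libraries kept their side, and 0 genes were called (smallest adjusted p = 0.477), with DUSP1 at 1.51 ± 0.35.

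Single libraries also decided the calls. No gene was called without D5000 library 5 or 6, control library 10, 16, 17 or 28, or D10000 library 26. A single gene was called without D10000 library 1, 20 or 21 or control library 23, and 6 genes were called without D5000 library 29. DUSP1 was called in 9 of the 16 fits that left out 1 library, with a fold change of 1.65 to 2.00. IER5 was called in 5 of 16 (1.81 to 2.31) and ENSSSCG00000028322 in 5 of 16 (2.13 to 2.91), so the sign and approximate size were kept in each of these fits while the adjusted p moved across the threshold.

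With all 24 libraries and the score as a continuous term, 4 genes (0.0392%) were called higher and 1 (0.00981%) lower per unit of score. These 24 libraries include the 16 already compared. They were IER5 at 0.83 ± 0.12 log2 units per score unit, ENSSSCG00000028322 at 1.01 ± 0.14, DUSP1 at 0.65 ± 0.12 and CCN1 at 0.80 ± 0.12 (adjusted p = 0.00015). FABP3, the fatty acid-binding protein of heart and oxidative muscle fibres, fell by 0.70 ± 0.14 per score unit (adjusted p = 0.0298). With diet added, IER5, ENSSSCG00000028322 and CCN1 were called at 0.83 ± 0.14, 0.92 ± 0.16 and 0.83 ± 0.15, and DUSP1 stood at 0.67 ± 0.14 (adjusted p = 0.097). FABP3 then stood at -0.62 ± 0.21 (adjusted p = 0.995), so the call of a lower gene was lost with diet in the fit.

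**Figure D4:**
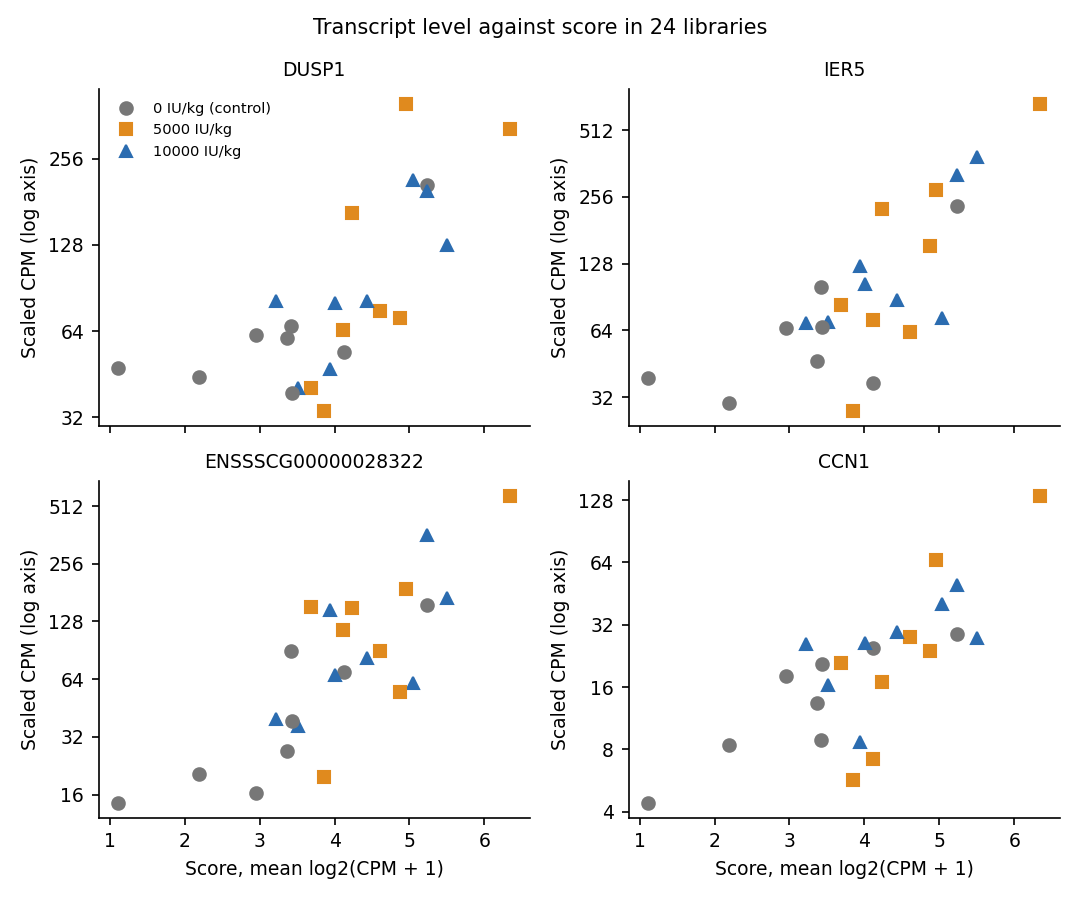
Level in scaled CPM (log axis) of DUSP1, IER5, ENSSSCG00000028322 and CCN1 against the immediate-early score (mean log2(CPM + 1)) in 24 libraries, with the diet shown by symbol. The highest IER5, ENSSSCG00000028322 and CCN1 levels belong to the D5000 library with the highest score, 6.35.

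Within each diet the slopes of all 4 genes on the score were positive. DUSP1 had slopes of 0.46 ± 0.18 in control, 1.24 ± 0.33 in D5000 and 0.80 ± 0.31 in D10000 libraries. IER5 had slopes of 0.59 ± 0.19 in control, 1.26 ± 0.29 in D5000 and 0.98 ± 0.30 in D10000 libraries. The slopes of ENSSSCG00000028322 were 0.87 ± 0.24, 0.91 ± 0.29 and 1.07 ± 0.37 in the same order. CCN1 had slopes of 0.66 ± 0.22, 1.38 ± 0.26 and 0.50 ± 0.29, of which that in D5000 passed (adjusted p = 0.049). No other of these slopes passed after adjustment, and the difference in slope between diets had an adjusted p of 1 for each gene.

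The held-out middle libraries gave no call for the 3 genes. Their score spanned only 3.68 to 4.43. The slopes per score unit were 2.46 ± 0.97 for DUSP1 (unadjusted p = 0.023, adjusted p = 1), 1.25 ± 1.25 for IER5 and -0.18 ± 1.16 for ENSSSCG00000028322. Slopes were positive for 2 of the 3 called genes and for 45.7% of all genes tested. Of the 729 genes on the higher side at an unadjusted p under 0.05, 36.6% had a positive slope in the middle libraries, below the share over all genes.

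Most members of the early-response feedback regulator list lay on the higher side. The list also holds other early-response genes, such as IER5 and the matricellular protein gene CCN1. Of 31 members tested out of 43, 2 were called higher (DUSP1 and IER5) and 0 lower. The fold change was positive in 27, with a median of 0.69, beside 5096 of 10197 and a median of -0.00 over all genes tested. At an unadjusted p under 0.05, 11 members were on the higher side and 1 on the lower. The median was 0.61 with the diet term, 0.45 with the assigned-share term, 0.41 without the 2 low-share libraries and 0.97 without TMM. Within diets the median slope was 0.27 in control, 0.20 in D5000 and 0.24 in D10000 libraries, and in the middle libraries 18 of 31 members had a positive slope.

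CCN1 (ENSSSCG00000006940), a matricellular protein induced by serum and stretch, was among the list members that did not pass. It had 23.8, 34.5 and 134 scaled CPM in high-score libraries (lowest, median, highest), against 4.43, 14.9 and 25.7 in low-score libraries. Its fold change was 1.77 ± 0.38 (adjusted p = 0.102), and 1.04 ± 0.47 with the diet term. Of the 8 high-score libraries, 7 lay above the highest low-score library. TRIB1, a pseudokinase that directs proteins to degradation, stood at 1.18 ± 0.32, with a median of 182 scaled CPM in high-score and 60.5 in low-score libraries. TIPARP, an ADP-ribosyltransferase induced by the aryl hydrocarbon receptor, stood at 1.43 ± 0.48, and the kinase phosphatase DUSP10 at 1.16 ± 0.39. A further kinase phosphatase, DUSP4, stood the other way at -1.85 ± 0.69, with a median of 3.19 scaled CPM in high-score and 6.45 in low-score libraries. The adjusted p was 0.361 to 0.381 for these 4 genes. The RNA-destabilising protein ZFP36 was scarce, at 0 to 9.01 scaled CPM in high-score and 0.23 to 5.08 in low-score libraries, with a fold change of 0.74 ± 0.86 that was 0.35 without control library 3, 0.36 without D5000 library 5 and 1.12 without control library 16.

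Other early transcription factors leaned the same way without a call. Of 23 members of the EGR, NR4A and KLF list tested, 0 were called, 19 were positive and the median was 0.42 (0.46 with the diet term). Within diets the list's median slope was 0.22 in control, 0.15 in D5000 and 0.06 in D10000 libraries. CSRNP1 (ENSSSCG00000011264), a nuclear protein induced by AXIN1 and cytokines and named here after its values were seen, had 1.66, 31.4 and 57.6 scaled CPM in high-score libraries, against 0.77, 4.22 and 10.3 in low-score libraries. Its fold change of 2.67 ± 0.55 did not pass (adjusted p = 0.102), and 1 high-score library lay below the low-score median. The orphan nuclear receptor NR4A1 (ENSSSCG00000031321) had 116, 217 and 1072 scaled CPM in high-score libraries, against 31.8, 133 and 290 in low-score libraries. The middle libraries had a median of 268 scaled CPM, above that of the high-score libraries. NR4A1 stood at 1.40 ± 0.49 (adjusted p = 0.371), and at 0.88 without D10000 library 20. Its relative NR4A2 stood at 1.02 ± 0.49 and NR4A3 (ENSSSCG00000005385) at 0.25 ± 0.77. NR4A3 had the higher median in low-score libraries, at 27.5 scaled CPM in high-score and 53.2 in low-score libraries.

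Dimers of FOS and JUN proteins form the AP-1 factor that binds DNA. The AP-1 family list had 8 tested members beyond the score genes. They were JUN and FOSL2, and the related JDP2, ATF2, ATF7, MAF, MAFF and MAFG. None was called, 5 were positive and the median was 0.22. The median slope was 0.27 within control, 0.37 within D5000 and -0.03 within D10000 libraries, and -0.74 in the middle libraries, where 3 of 8 were positive. JUN (ENSSSCG00000031912) had 93.9, 209 and 704 scaled CPM in high-score libraries, against 43.4, 117 and 299 in low-score libraries. Its ranges overlapped broadly and its fold change was 1.15 ± 0.40 (adjusted p = 0.369), with 0.39 ± 0.57 once diet was a term and 0.61 ± 0.39 once the assigned share was. FOSL2 (ENSSSCG00000032527) stood at 0.41 ± 0.33 (adjusted p = 0.63), and at 0.20 without D5000 library 6. FOSB, EGR2, EGR3, IER2, MYC and the vitamin D receptor gene VDR were below the filter on low counts, and no identifier was matched to JUND, BTG2, ATF4 or DDIT3.

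No gene was called in the lists of stress programs that often accompany the early response. Of 29 heat-shock proteins and co-chaperones tested, 0 were called and 6 were positive, with a median of -0.20. Without TMM the median was 0.09 with 17 positive, beside 0.31 over all genes tested with 7341 of 10197 positive. The median slope was -0.16 within control, 0.03 within D5000 and -0.11 within D10000 libraries, and 19 of 29 slopes were positive in the middle libraries. HSPA8, the constitutive heat-shock cognate protein whose reads may be shared with near-identical copies, had a median of 820 scaled CPM in high-score and 695 in low-score libraries, and its fold change was -0.11 ± 0.34. The chaperone HSPH1 stood at -0.02 ± 0.28, DNAJB1 at 0.25 ± 0.32 and the co-chaperone BAG3 at -0.49 ± 0.30. Leaving out 1 library took DNAJB1 to between 0.07 (without D5000 library 5) and 0.44 (without control library 10), and BAG3 to -0.29 (without control library 10). The small heat-shock protein CRYAB stood at -1.03 ± 0.43 and DNAJB6, a co-chaperone of the muscle Z-disc, at -1.02 ± 0.33, both with an adjusted p above 0.05. The 18 ATF4 and integrated stress response genes tested had a median of 0.03 with 11 positive. ATF4 and DDIT3, matched to no identifier, and the score gene ATF3 were not among them. In that list ASNS stood at 1.05 ± 0.53 and DDIT4 at -0.90 ± 0.33, both with an adjusted p above 0.05. The 22 hypoxia-inducible genes had a median of 0.02 with 13 positive. The growth arrest gene GADD45B stood at 0.10 ± 0.51, spanning 0.43 to 37.3 scaled CPM in high-score and 10.3 to 14.5 in low-score libraries.

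Inflammatory genes were few and mostly low. Of 13 tested, 0 were called and 11 were positive, with a median of 0.26 that was 0.00 with the diet term. Within diets the median slope was 0.19 in control, 0.09 in D5000 and 0.09 in D10000 libraries, and in the middle libraries it was -0.16. The chemokine CXCL2 had medians of 5.75 scaled CPM in high-score and 1.14 in low-score libraries and a fold change of 1.69 ± 0.61 (adjusted p = 0.371). The adhesion molecule ICAM1 had medians of 27.7 scaled CPM in high-score and 20.7 in low-score libraries, with a fold change of 0.88 ± 0.36. Circadian clock genes had 13 of 16 positive and a median of 0.32. Their median slope was 0.05 within control, -0.03 within D5000 and 0.03 within D10000 libraries. In the middle libraries it was -0.19, with 7 of 16 positive. PER1 (ENSSSCG00000017983), which light and stress hormones also induce, stood at 0.18 ± 0.30, with 0.02 to 0.30 when 1 library was left out.

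**Figure D5:**
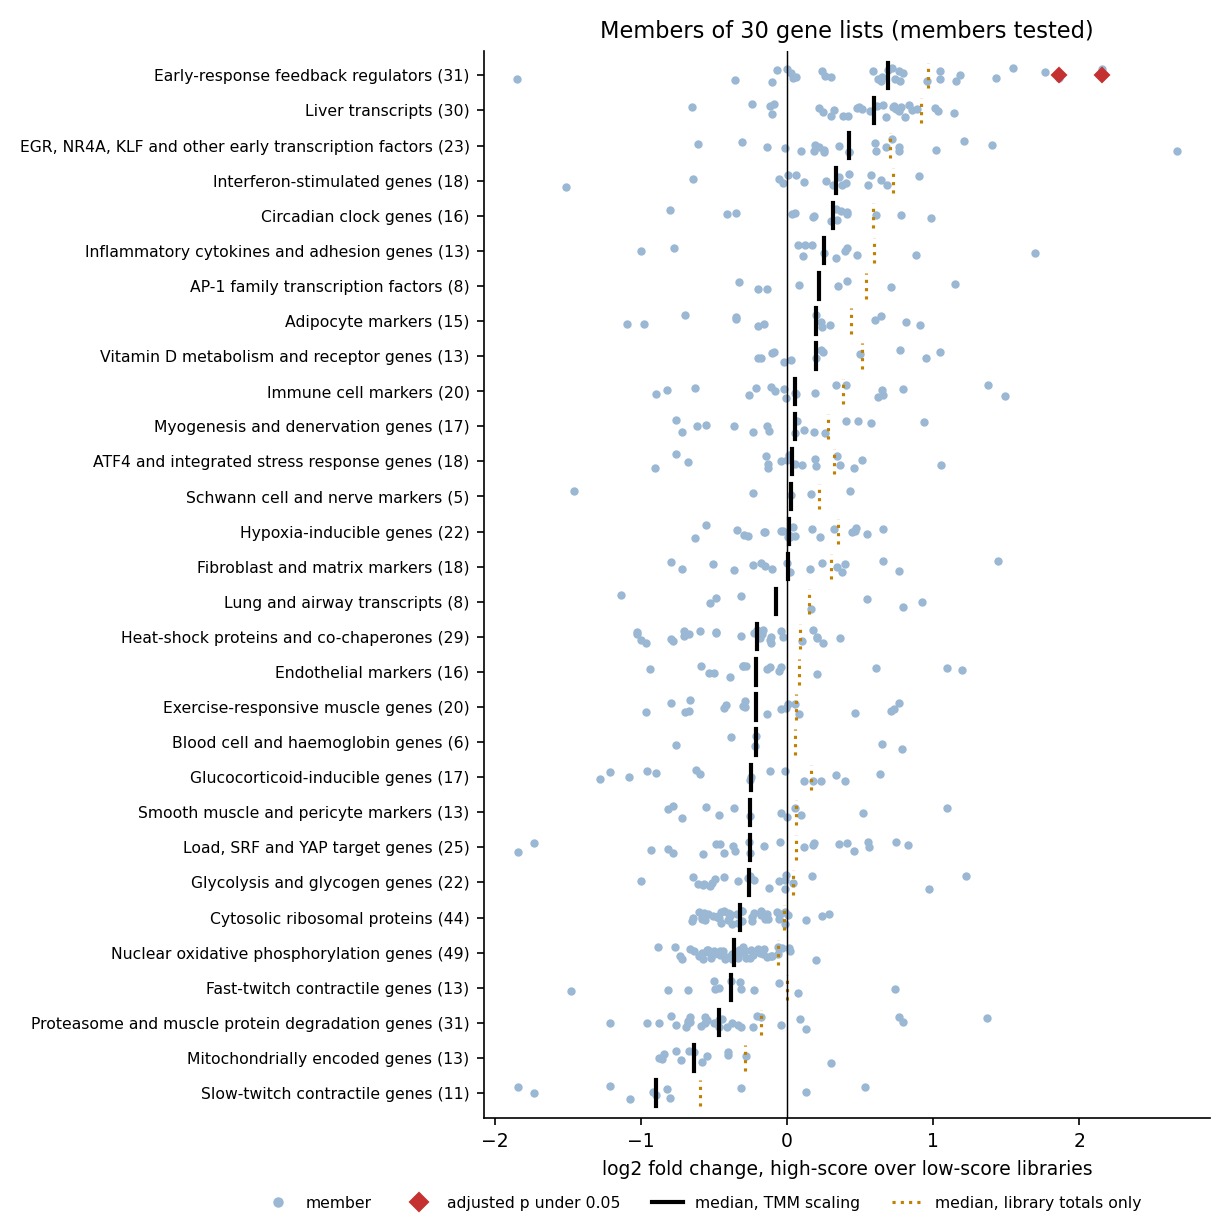
Log2 fold change (high-score over low-score libraries, horizontal axis) of the tested members of 30 gene lists, with the number tested in parentheses. Each dot is a gene and the 2 diamonds are DUSP1 and IER5. The solid mark is the list median with TMM scaling and the dotted mark the median with library totals only. The list of early-response feedback regulators has a median of 0.69 and the slow-twitch contractile genes one of -0.90.

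Slow-twitch and mitochondrially encoded genes lay mostly on the lower side in the high-score libraries, with no call. Of the 11 slow-twitch contractile genes tested, 2 were positive and the median was -0.90. That median was -0.65 with the diet term, -0.60 without TMM and -0.16 with the assigned-share term. With FOS out of the score it was -0.23, with 4 positive. The slow troponin C gene TNNC1 had medians of 467 scaled CPM in high-score and 981 in low-score libraries and a fold change of -1.21 ± 0.43 (adjusted p = 0.371). The ventricular and slow-fibre light chain MYL2 stood at -0.80 ± 0.44. The stretch-responsive Z-disc and titin partners CSRP3 and ANKRD2 stood at -1.84 ± 0.87 and -1.73 ± 0.66. CSRP3 was scarce, with medians of 1.87 scaled CPM in high-score and 3.66 in low-score libraries. ANKRD2 had medians of 23.7 scaled CPM in high-score and 49.6 in low-score libraries, with a low-score maximum of 265. Within diets the list's median slope was -0.60 in control, -0.48 in D5000 and -0.15 in D10000 libraries. The 13 fast-twitch genes had a median of -0.39, which without TMM was 0.00 (all genes: 0.31). With the assigned-share term these genes had a median of 0.15 with 9 positive. Their median slope was -0.07 within control, 0.13 within D5000 and -0.09 within D10000 libraries. The parvalbumin gene PVALB (ENSSSCG00000000138) stood at -1.48 ± 0.43 (adjusted p = 0.364). FABP3 (ENSSSCG00000036883) had 34.6, 69.7 and 169 scaled CPM in high-score libraries, against 78.3, 162 and 1173 in low-score libraries, with a fold change of -1.86 ± 0.52 (adjusted p = 0.364). Without control library 16, the highest at 1173, the fold change was -0.99. The FABP3 slope was -1.0 ± 0.29 within control, -0.59 ± 0.35 within D5000 and 0.08 ± 0.39 within D10000 libraries.

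The 13 mitochondrially encoded genes had 1 positive and a median of -0.64, and they made up 10.2 ± 2.20% of gene counts in high-score and 12.7 ± 3.27% in low-score libraries (SD, n = 8 each; exact permutation p = 0.094, adjusted p = 0.242). ND4, a subunit of complex I, stood at -0.85 ± 0.31. The median was -0.29 without TMM and -0.29 with the assigned-share term. Within diets the median slope was -0.22 in control and -0.55 in D5000 libraries, but 0.03 with 7 of 13 positive in D10000 libraries. The 49 nuclear oxidative phosphorylation genes had 3 positive and a median of -0.36, but with the assigned-share term the median was 0.09 with 31 positive. The 44 cytosolic ribosomal protein genes, whose reads may be shared with processed copies, had a median of -0.32 that was 0.10 with that term. Within control, D5000 and D10000 libraries the median slope was -0.21, -0.13 and -0.07 for the oxidative phosphorylation genes and -0.02, -0.12 and -0.16 for the ribosomal protein genes. For the 22 glycolysis and glycogen genes the median of -0.26 was 0.18 with that term. Assigned share averaged lower in high-score libraries (exact permutation, adjusted p = 0.242), and its part in these differences was not tested.

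Protein degradation genes lay mostly on the lower side. Of 31 tested, 0 were called and 5 were positive, with a median of -0.46 (-0.31 with the assigned-share term and -0.18 without TMM). Within diets the median slope was -0.11 in control, -0.05 in D5000 and -0.30 in D10000 libraries, but in the middle libraries it was 0.41 with 18 of 31 positive. The muscle ubiquitin ligases TRIM63 and FBXO32 stood at -0.95 ± 0.31 and -1.21 ± 0.48, and the proteasome ATPase PSMC2 at -0.79 ± 0.28, each with an adjusted p above 0.05. The glucocorticoid-inducible list, which shares both ligases, had 6 of 17 positive and a median of -0.24, which without TMM was 0.16 (all genes: 0.31). In it the immunophilin FKBP5 (ENSSSCG00000001549) stood at -0.90 ± 0.38 and PDK4 (ENSSSCG00000015334), the kinase that turns off pyruvate dehydrogenase, at -0.59 ± 0.29. FKBP5 stood at -0.49 without D10000 library 1, and PDK4 at -0.36 without control library 16. The FKBP5 slope was 0.05 ± 0.24 within control, 0.18 ± 0.33 within D5000 and -1.27 ± 0.37 within D10000 libraries. The coactivator PPARGC1A (ENSSSCG00000029275), induced by exercise, stood at 0.01 ± 0.32, with medians of 120 scaled CPM in high-score and 111 in low-score libraries.

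Liver transcripts lay mostly on the higher side between the sets, but not in every subset of libraries. These transcripts, such as albumin, were present in every library of both sets, with a summed level of 9934 to 57817 CPM in high-score and 5918 to 38963 CPM in low-score libraries. Of 30 tested, 0 were called and 25 were positive, with a median of 0.59, and 13 had an unadjusted p under 0.05. Within diets the median slope was 0.30 in control (29 of 30 positive), -0.07 in D5000 (10 of 30) and 0.18 in D10000 libraries (22 of 30). In the middle libraries it was -0.41, with 2 of 30 positive. The amino acid enzyme TAT stood at 1.03 ± 0.31 and the albumin gene ALB at 0.68 ± 0.33. The liver list's mean log2(CPM + 1) was 8.18 ± 0.78 in high-score and 7.35 ± 0.93 in low-score libraries (SD, n = 8 each; exact permutation p = 0.072, adjusted p = 0.242). Its median fold change was 0.02 once the assigned share was a term, and no fit held a term for liver transcripts. The part of liver transcripts in the calls was not tested.

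Markers of cell types within muscle gave no call. The median fold change was -0.21 for 16 endothelial, -0.25 for 13 smooth muscle and pericyte, 0.01 for 18 fibroblast and matrix, 0.20 for 15 adipocyte, 0.06 for 20 immune cell, -0.21 for 6 blood cell and 0.03 for 5 Schwann cell markers tested, with 0 called. Summed immune cell markers ran from 193 to 864 CPM in high-score and from 199 to 828 CPM in low-score libraries, and summed endothelial markers from 188 to 428 CPM in high-score and from 144 to 363 CPM in low-score libraries. With the assigned-share term the median fold change was 0.13 for smooth muscle and pericyte markers (9 of 13 positive). It was -0.04 for immune cell and -0.01 for fibroblast and matrix markers in that fit. With the diet term it was 0.15 for smooth muscle and pericyte and -0.13 for immune cell markers. The adipocyte median was -0.18 with DESeq2. In bulk tissue, fewer cells of a type and less RNA per cell cannot be told apart. The 8 lung and airway transcripts tested had a median of -0.07, the 17 myogenesis and denervation genes 0.05, the 20 exercise-responsive genes -0.21, the 25 load-responsive genes -0.25 and the 18 interferon-stimulated genes 0.33, with 0 called. The 13 vitamin D metabolism and receptor genes tested had a median of 0.20 with 8 positive and 0 called. With the assigned-share term the median was -0.18 for the interferon-stimulated genes (4 of 18 positive), 0.06 for the load-responsive, 0.09 for the exercise-responsive and -0.07 for the vitamin D genes, each the other way from its main value. Without the 2 low-share libraries the interferon median was -0.03.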

How the data were processed

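Gene counts were made by the authors and deposited as 1 file of whole-number counts per library, with 25880 gene identifiers. Libraries were made with a 3' QuantSeq kit, per the labels' protocols, and FastQC is named in the submitters' processing notes. For aligner, counter and genome build: not given in the sources used here. In each file, 5 summary lines of unassigned reads stayed out of library sizes; the report gives the assigned share. Symbols were matched for 14857 identifiers. The members and gene lists were chosen with earlier results of these data known.

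Counts were fitted with edgeR 4.0.16 (TMM, filterByExpr with a minimum count of 10, robust quasi-likelihood test; R 4.3.3), with Benjamini-Hochberg adjustment over 10200 genes at a threshold of 0.05. The 3 score genes that passed the filter stayed in the fit and out of the results. Levels are TMM-scaled CPM over 24 libraries. Library measures were compared by two-sided exact permutation over 12870 arrangements. The fit was tested on simulated counts. Genes named were those called, called list members and a fixed group; other genes named were picked after their values were seen. Alternatives were DESeq2 1.42.0, limma 3.58.1 voom, RLE scaling, no filter, diet or assigned share as a term, a continuous score, 12 or 6 libraries a set, other scores, and leaving out libraries. The continuous score with a diet term and library totals without TMM were added after seeing the data. Replicates are separate pigs, per the labels.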

Additional observations from a re-analysis of the deposited data

Results flagged for a closer look

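FABP3, the fatty acid-binding protein of oxidative fibres, stood at 1173 scaled CPM in control library 16, far above the other 7 low-score libraries. The mean log2(CPM + 1) of immune cell markers was 3.186 in control library 23, apart from the other low-score libraries. Both were picked out because 1 library lay farther from the rest of its set than Dixon's 95% limit of 0.526 for 8 values allows. Of 80 sets of 8 values examined, 2 were picked out, and chance picks out about 1 in 20.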

How the results depend on the processing

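No paired analysis was possible because the animal numbers are unique and the labels do not tie pigs to litters. In edgeR the count of 3 genes called higher became 1 with 12 libraries a set and 5 with 6 libraries a set. It was 5 without TMM and 5 with EGR1 out of the score. With no filter on low counts it was 2, and with ATF3 out of the score 4, each fit keeping 2 of the 3 genes. The count was 0 with the diet term, 0 with limma voom and 0 with FOS out of the score, and 25 with DESeq2. Leaving out single libraries gave 0 to 6 genes. The count of 0 genes called lower became 1 with DESeq2 and 1 with the continuous score. The causes of these changes were not tested, and the fit with 6 a set held fewer libraries.

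Some genes that were not called changed sign, and not always near 0. When single libraries were left out, the log2 fold change of NR4A3 (0.25 with all) spanned -0.23 to 0.44, the log2 fold change of HSPH1 (-0.02) -0.15 to 0.12, the log2 fold change of HSPA8 (-0.11) -0.23 to 0.073, the log2 fold change of GADD45B (0.10) -0.33 to 0.29 and the log2 fold change of PPARGC1A (0.01) -0.16 to 0.29. HSPH1 was 0.049 with 6 a set, 0.0001 with DESeq2 and 0.0001 with RLE, 0.084 with the assigned-share term, 0.064 with the continuous score, 0.39 without TMM, 0.013 with limma voom and 0.28 with EGR1 out of the score. HSPA8 was 0.52 with the assigned-share term, 0.032 with the diet term, 0.16 without TMM and 0.17 without libraries under 40% assigned. GADD45B was -0.21 with the diet term and -0.56 with limma voom. PPARGC1A was -0.084 with the assigned-share term, -0.0014 with the continuous score and diet, -0.22 with the diet term, -0.0081 with no filter, -0.47 with ATF3 out of the score and -0.079 without libraries under 40% assigned.

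Differences in the mean log2(CPM + 1) of a gene list, taken without TMM, also changed sign. With 8 a set they were 0.044 for lung and airway, 0.11 for adipocyte and 0.076 for endothelial lists. They were -0.014 for smooth muscle and pericyte, -0.0047 for Schwann cell and -0.16 for fast-twitch lists. For lung and airway transcripts they were -0.27 with 6 a set, -0.14 with EGR1 out of the score and -0.18 with 12 a set. They were -0.064 for adipocyte markers with 12 a set, -0.017 and -0.030 for endothelial markers with EGR1 out of the score and with 12 a set, and 0.11 for smooth muscle markers with 6 a set. For Schwann cell markers they were 0.039 with 6 a set, 0.043 with FOS out and 0.012 with EGR1 out of the score. For fast-twitch genes they were 0.027 with EGR1 out, 0.046 with ATF3 out and 0.024 with 12 a set. The common biological coefficient of variation was 0.581, which limits what 8 libraries a set can show.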

Other observations

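The D10000 library of animal 27, left out by the rule, had 12856462 gene counts and a score of 4.14, between the sets. Its CPM was 132 for DUSP1, 26.4 for IER5, 33.8 for ENSSSCG00000028322 and 8.17 for CCN1, and ACTA1 stood at 10029 CPM.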
